A study of Arabidopsis thaliana with 6 samples.

Results

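Leaf senescence and chlorophyll breakdown were followed through 9 genes in rosette leaves of *fer* and WT Arabidopsis (*Arabidopsis thaliana*). The genes were taken by identifier: the senescence-associated genes SAG12, SAG13, SAG21 and SEN1, the transcription factor genes ORE1 and NAP, and the chlorophyll breakdown genes SGR1, NYC1 and PAO. All 9 were present among the 20754 genes measured, and none was absent. The measurement was QuantSeq, which sequences the 3′ end of polyadenylated transcripts, so that a transcript gives about the same number of reads whatever its length and levels of different genes can be set side by side.

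The *fer* plants carry *fer-4*, a T-DNA insertion that abolishes the function of the receptor kinase FERONIA (FER) in all tissues, and the control plants are WT of the same accession, Columbia-0. There were 3 libraries of each genotype, and both genotypes were untreated. According to the labels, seedlings of both genotypes spent 10 days on medium in constant light and 3 weeks on soil with 8 hours of light and 16 hours of dark, and were 4 weeks old at harvest. The times on medium and on soil together exceed the stated 4 weeks, and the study names plants somewhat older than that. The study's methods instead name long days. The exact age and the day length cannot be settled from the files. The labels do not say which rosette leaves were taken or how many plants went into a library, and the study's methods describe pools of entire rosettes, more of *fer* than of WT in each, only for its protein samples, so that leaf position and developmental stage of the sampled leaves cannot be told apart from the genotype. The study describes *fer* rosettes as smaller than those of WT.

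Senescence is the last phase of a leaf's life, in which proteins, lipids and chlorophyll are taken apart and the nitrogen and minerals are moved to growing organs or seeds. Transcription factors of the NAC and WRKY families switch on the genes that carry this out, among them proteases such as SAG12, and they are themselves induced by age, ethylene, abscisic acid, jasmonate and darkness. Chlorophyll b is first reduced to chlorophyll a, and the magnesium is removed from chlorophyll a. The phytol tail is then cut off, and PAO opens the ring. The product of PAO is reduced by RCCR on the way to colourless catabolites.

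FER itself was measured first, because it checks the labels. It had 5.95, 6.63 and 10.3 normalized reads in *fer*, against 265, 266 and 286 normalized reads in WT. Each library had been brought by the authors to a common size of between 4523902 and 4526129 normalized reads, so that the sequencing depth of each library is unknown here. Green leaf tissue was checked with RBCS1A, LHCB1.3, LHCB2.1 and CA1, which held between 6370 and 57885 normalized reads in *fer* and between 11334 and 69715 in WT, and 3 of these 4 were called lower in *fer*. Seed storage genes (3 of 3), AP1 and AP3 of 6 flower genes and COBL9 of 3 root genes were absent from the table. The other 4 flower genes reached at most 7.25 normalized reads in *fer* and 3.40 in WT, and of these AG was called lower in *fer*, with 0.034, 0.021 and 0 normalized reads in *fer* against 3.40, 3.01 and 3.23 in WT (adjusted p 0.033 in limma). EXPA7, a root hair gene, reached at most 3.12 normalized reads in *fer* and 1.55 in WT, while NRT2.1, a nitrate transporter gene used as a root marker, had 8.68, 12.5 and 15.5 normalized reads in *fer*, against 0.19, 0.0071 and 1.14 in WT. The WT values of AG lay close to 3 normalized reads, which is taken as the floor below. The part of NRT2.1, AG and the green leaf genes in the results below was not tested.

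All 9 genes were higher in *fer* than in WT. In each of them the lowest *fer* library lay above the highest WT library, a separation in this direction that 20.8% of all genes showed. All 9 were also called in limma, at an adjusted p under 0.05 with Benjamini-Hochberg adjustment over all 20754 genes, where 10.0% of all genes were called higher and 4.52% lower in *fer*. The log2 fold changes of *fer* over WT ranged between 0.51 and 5.01 with a median of 0.85, and the median over all genes was 0.10. The sum over the 9 genes was between 1332 and 1369 normalized reads in the *fer* libraries, against between 601 and 719 in the WT libraries. In whole leaves, more RNA per cell and a larger share of cells or leaves with the transcript cannot be told apart. The scaling of the libraries and the variance model decided how many of the 9 were called: 7 were called under median of ratios scaling, which places the median of all genes at 0.01 (background 7.30% higher), 7 under quantile normalization, which moves that median by -0.14 (background 6.52% higher), and 5 in limma when the variance was not modelled on the level (without the trend), where the background was 4.38% higher, 1.07% lower and 5.44% in either direction.

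**Figure D1:**
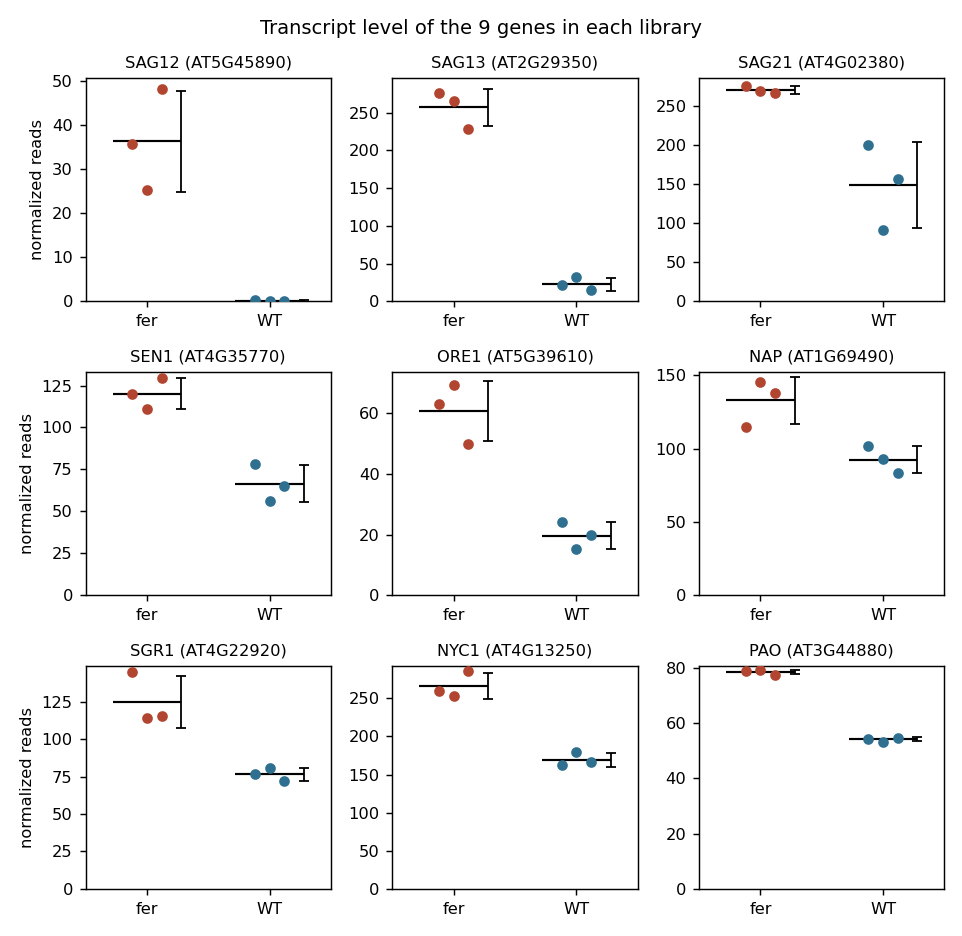
Normalized reads of the 9 genes in each library, with *fer* libraries in red and WT libraries in blue; horizontal bars are means and whiskers are SDs over 3 libraries, and every axis starts at 0. In each panel the *fer* libraries sit above the WT libraries, with the smallest relative gap for NAP and then SAG21, and with SAG12 at the baseline in WT.

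Promoter sequence is shown for the genes of this set whose 250 bases before the annotated start held a match to the sequences ACGTG or CATGTG on either strand. ACGTG is the core of the element bound by abscisic acid-responsive bZIP factors and, as CACGTG, of the G-box bound by bZIP and bHLH factors. CATGTG is a sequence bound by the NAC factors NAC019, NAC055 and RD26 in the promoter of ERD1. The matches are in capitals, the sequences run 5′ to 3′ toward the gene, and they were read from TAIR10.1 at chr5:18612989-18613238 (plus strand, SAG12), chr4:7687007-7687256 (minus strand, NYC1), chr1:26121830-26122079 (plus strand, NAP) and chr2:12600664-12600913 (plus strand, SAG13), none of which overlaps another gene.
SAG12: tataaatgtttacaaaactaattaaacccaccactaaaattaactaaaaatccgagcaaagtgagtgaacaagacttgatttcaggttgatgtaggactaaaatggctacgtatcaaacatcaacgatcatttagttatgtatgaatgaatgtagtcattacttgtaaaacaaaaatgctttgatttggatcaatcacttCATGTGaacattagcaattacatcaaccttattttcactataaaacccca
NYC1: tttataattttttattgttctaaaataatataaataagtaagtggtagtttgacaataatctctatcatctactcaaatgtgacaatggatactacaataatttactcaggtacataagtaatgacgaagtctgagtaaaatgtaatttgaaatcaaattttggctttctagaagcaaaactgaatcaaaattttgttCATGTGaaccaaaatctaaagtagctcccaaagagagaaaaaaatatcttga
NAP: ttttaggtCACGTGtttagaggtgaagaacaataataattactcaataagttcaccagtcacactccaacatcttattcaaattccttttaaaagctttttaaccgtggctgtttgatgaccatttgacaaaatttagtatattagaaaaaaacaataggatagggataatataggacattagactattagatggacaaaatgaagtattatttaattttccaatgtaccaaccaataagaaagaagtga
SAG13: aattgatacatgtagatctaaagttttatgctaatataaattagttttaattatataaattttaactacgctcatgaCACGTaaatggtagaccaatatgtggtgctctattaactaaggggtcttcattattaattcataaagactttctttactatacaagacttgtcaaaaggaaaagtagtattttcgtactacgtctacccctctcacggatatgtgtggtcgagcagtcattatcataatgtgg
CATGTG was found in 2 of the 9 promoters, SAG12 at 50 and NYC1 at 52 bases before the start, and in 11.1% of 27443 promoters of protein-coding genes. ACGTG was found in 2 of 9, SAG13 and NAP, against 22.9% of all promoters, and CACGTG, which contains it, in NAP alone, against 6.49%. The WRKY-binding core TTGAC was found in 4 of 9, SAG13, SAG21, NAP and NYC1, against 44.9% of all promoters. The windows of SEN1, SGR1 and PAO overlap a neighbouring gene and held no match to any of these sequences. Windows of all promoters were not filtered for such overlaps either. None of these shares is set apart from those of all promoters by a test, and a match is a description of the letters and not of binding.

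The senescence-associated genes had log2 fold changes between 0.85 and 5.01, with SAG12 and SAG13 the highest of the 9 genes. SAG12 (AT5G45890, chromosome 5, 18613239 to 18614963, plus strand of TAIR10.1) encodes a cysteine protease of senescing leaves and is a widely used marker of senescence driven by leaf age. It had 35.7, 25.3 and 48.2 normalized reads in *fer*, against 0.39, 0.014 and 0 in WT. Every *fer* library was above 25 normalized reads, and every WT library was below 1. The *fer* mean of 36.4 ± 11.5 (SD, n = 3) was at least 12.1-fold higher than WT, taken against a floor of 3 normalized reads per library. The fitted log2 fold change, 5.01 ± 0.48 (SE; adjusted p 3.7e-07 in limma), depends on the pseudocount of 1 and was 7.63 with a pseudocount of 0.1. By this fitted value SAG12 was the 12th of 20754 genes in order of increase. Its level in *fer* was nevertheless moderate, at the 45.1 percentile of all genes by mean level in *fer*.

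SAG13 (AT2G29350, chromosome 2, 12600914 to 12602556, plus strand) encodes a short-chain dehydrogenase whose transcript rises before visible yellowing and also during defence. It had 276, 266 and 229 normalized reads in *fer*, against 21.0, 32.2 and 14.7 in WT. The means were 257 ± 24.9 in *fer* and 22.6 ± 8.86 in WT (SD, n = 3), an 11.3-fold ratio. Limma gave a log2 fold change of 3.51 ± 0.22 (SE; adjusted p 8.5e-10), and it was the 43rd of 20754 genes in order of increase. Its level moved to the 86.6 percentile of all genes in *fer*, against the 37.8 percentile in WT.

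SAG21 (AT4G02380, chromosome 4, 1046042 to 1047105, minus strand) encodes a mitochondrial protein of the late embryogenesis abundant group that is also induced by oxidative stress. It had 276, 268 and 266 normalized reads in *fer*, against 200.2, 90.6 and 156 in WT. The WT libraries were spread over a range of more than 100 normalized reads, with a coefficient of variation of 37.1%, whereas the *fer* libraries had one of 1.87%. Limma gave a log2 fold change of 0.93 ± 0.19 (SE; adjusted p 0.0022). WT column 2, the lowest, carried part of it: without that library the log2 fold change was 0.61, with an adjusted p of 0.011. Limma without the trend did not call SAG21, at an adjusted p of 0.14.

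SEN1 (AT4G35770, chromosome 4, 16944878 to 16946266, plus strand), also known as DIN1, encodes a rhodanese-like chloroplast protein and is induced by darkness and sugar starvation. It had 120.2, 111 and 129 normalized reads in *fer*, against 77.9, 56.3 and 65.1 in WT. The means of 120.1 ± 9.16 in *fer* and 66.5 ± 10.9 in WT differed 1.81-fold, and limma gave a log2 fold change of 0.85 ± 0.16 (SE; adjusted p 0.0011). SEN1 was called under each of the alternatives and after leaving out any of the 6 libraries.

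ORE1 and NAP are NAC transcription factors that promote senescence, and both were higher in *fer*, ORE1 by more than NAP. ORE1 (AT5G39610, listed as NAC6 in RefSeq, chromosome 5, 15858398 to 15859911, minus strand) acts downstream of ethylene signalling and is held back in young leaves by a microRNA. It had 63.1, 69.5 and 49.8 normalized reads in *fer*, against 24.0, 15.1 and 19.9 in WT. The lowest *fer* library was above the highest WT library by more than the whole WT range. Limma gave a log2 fold change of 1.59 ± 0.25 (SE; adjusted p 0.00018), a 3.09-fold ratio of the means. NAP (AT1G69490, chromosome 1, 26122080 to 26123514, plus strand) acts with abscisic acid and promotes chlorophyll breakdown. It had 115, 146 and 138 normalized reads in *fer*, against 101, 92.6 and 83.5 in WT, so that the nearest libraries of the genotypes differed little. Limma gave a log2 fold change of 0.51 ± 0.15 (SE; adjusted p 0.024). NAP lost its call under both other scalings (adjusted p of 0.065 and 0.090), in limma without the trend (0.12), and without WT column 2 (0.073), WT column 3 (0.097), *fer* column 2 (0.092) or *fer* column 3 (0.10).

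A ratio between 2 genes of the same library, taken here with a pseudocount of 1, hardly depends on how the libraries were scaled. The log2 ratio of NAP to ORE1 was 0.85, 1.06 and 1.45 in the *fer* libraries, against 2.04, 2.54 and 2.02 in the WT libraries. The difference of *fer* minus WT was -1.08 on the log2 scale, with no overlap, and an exact two-sided permutation test gave p = 0.1, the smallest that 3 against 3 libraries allow (0.40 after Benjamini-Hochberg adjustment over the 4 ratios planned). ORE1 thus made up a larger part of the sum of both transcripts in each *fer* library than in any WT library.

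The 3 chlorophyll breakdown genes rose, with ratios of the means of 1.64 for SGR1, 1.57 for NYC1 and 1.45 for PAO. SGR1 (AT4G22920, listed as NYE1 in RefSeq, chromosome 4, 12016420 to 12018643, minus strand) encodes the STAY-GREEN magnesium dechelatase, which removes the magnesium from chlorophyll a. It had 145, 114 and 116 normalized reads in *fer*, against 76.9, 80.5 and 72.0 in WT. All *fer* values were above all WT values, and *fer* column 1 was apart from the other two. Limma gave a log2 fold change of 0.70 ± 0.15 (SE; adjusted p 0.0038, or 0.055 without the trend).

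NYC1 (AT4G13250, chromosome 4, 7684156 to 7687006, minus strand) encodes chlorophyll b reductase. It had 259, 254 and 286 normalized reads in *fer*, against 163, 180.1 and 166 in WT. The means were 266 ± 17.3 in *fer* and 170 ± 9.18 in WT (SD, n = 3), and limma gave a log2 fold change of 0.65 ± 0.11 (SE; adjusted p 0.00046). NYC1 kept its call under each alternative and after leaving out any library, with adjusted p-values of at most 0.041.

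PAO (AT3G44880, listed as ACD1 in RefSeq, chromosome 3, 16383595 to 16386344, plus strand) encodes pheophorbide a oxygenase, which opens the ring. It had 78.7, 79.2 and 77.5 normalized reads in *fer*, against 54.4, 53.3 and 54.6 in WT. These were the most even libraries of the set, with SDs of 0.87 in *fer* and 0.70 in WT around means of 78.5 and 54.1. Limma gave a log2 fold change of 0.53 ± 0.17 (SE; adjusted p 0.043, or 0.052 without the trend). That SE draws on the variance of other genes and does not reflect the evenness of PAO alone. The call was lost under median of ratios scaling (0.10), under quantile normalization (0.16) and whichever library was left out: without *fer* column 1, 2 or 3 the adjusted p was 0.10, 0.088 and 0.11, and without WT column 1, 2 or 3 it was 0.078, 0.10 and 0.086.

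**Figure D2:**
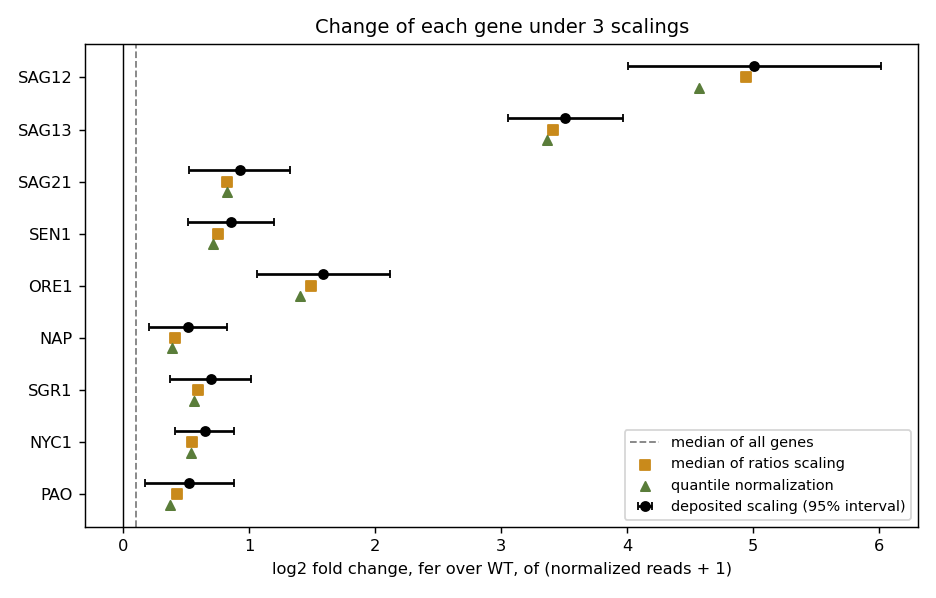
Log2 fold change of *fer* over WT for each of the 9 genes on the log2(normalized reads + 1) scale. Black points are the deposited scaling with 95% intervals from limma, squares are median of ratios scaling, triangles are quantile normalization, and the dashed line is the median of all genes at 0.10. All points lie above 0, SAG12 and SAG13 stand far to the right, and NAP, SGR1, NYC1 and PAO lie between 0.51 and 0.70 under the deposited scaling.

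The proportions among SGR1, NYC1 and PAO were compared within libraries. The log2 ratio of SGR1 to NYC1 was -1.09 ± 0.24 in *fer* and -1.14 ± 0.061 in WT (SD, n = 3), with an exact permutation p of 0.8. That of PAO to NYC1 was -1.75 ± 0.11 in *fer* and -1.63 ± 0.094 in WT, and that of PAO to SGR1 was -0.66 ± 0.19 in *fer* and -0.49 ± 0.097 in WT, each with an exact permutation p of 0.3. The genotypes overlapped in each of these 3 ratios. With 3 libraries each this test cannot give a p below 0.1, so it does not show whether the proportions were kept. The order of the levels was the same in all 6 libraries, with NYC1 above SGR1 and SGR1 above PAO.

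Other genes of the same pathway did not all follow. Of 11 further genes of chlorophyll breakdown, 4 were called higher and 0 lower in *fer* in limma, beside 10.0% and 4.52% of all genes, and the median log2 fold change was 0.04. Before adjustment 7 of the 11 had a p below 0.05, 4 of them higher and 3 lower (HCAR, RCCR and MES16), beside 5614 of the 20754 genes in either direction. The 4 were CLH1, SGR2, CYP89A9 and PPH. PPH, the pheophytinase that removes the phytol tail between the steps of SGR1 and PAO, had 269, 254 and 236 normalized reads in *fer*, against 165, 112 and 157 in WT. Its log2 fold change was 0.82 ± 0.14 (SE; adjusted p 0.00039 in limma), but limma without the trend did not call it (adjusted p 0.064). CYP89A9, a cytochrome P450 that acts on the colourless products, had 318, 309 and 309.9 normalized reads in *fer*, against 131, 135 and 167 in WT, with a log2 fold change of 1.12. SGR2, a paralog of SGR1, was low, with 9.86, 17.8 and 17.3 normalized reads in *fer* against 6.10, 6.04 and 3.34 in WT. Its adjusted p was 0.038 in limma, but the call was lost under both other scalings, with a pseudocount of 0.1, without the trend (0.053 to 0.086) and without any library other than *fer* column 1 (0.053 to 0.15). CLH1, a chlorophyllase that is induced by jasmonate and wounding and is not needed for chlorophyll loss in senescence, had the largest change, with 6572, 6965 and 6181 normalized reads in *fer* against 2151, 1548 and 1531 in WT and a log2 fold change of 1.93 ± 0.10 (SE).

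The other 7 genes of the pathway were not called, at log2 fold changes between -1.14 and 0.14, and those named here were chosen after their values were seen. NOL, the partner of NYC1 in chlorophyll b reduction, had 30.7, 24.4 and 30.6 normalized reads in *fer*, against 31.8, 40.2 and 34.4 in WT (adjusted p of 0.47 in limma). HCAR, which completes the conversion of chlorophyll b to a, had 11.1, 10.6 and 9.49 normalized reads in *fer*, against 23.1, 22.1 and 13.6 in WT (adjusted p 0.14 in limma). RCCR, which reduces the product of PAO, had 440.1, 432 and 423 normalized reads in *fer*, against 489, 546 and 492 in WT (adjusted p 0.094 in limma). RCCR and MES16, a methylesterase of chlorophyll catabolites, were called lower in *fer* under median of ratios scaling and under quantile normalization, where 6.95% and 6.99% of all genes were called lower. The 3′ end of RCCR overlaps a neighbouring gene on the same strand by 167 bases. Whether a read there was counted, and for which gene, is therefore uncertain. The log2 ratio of NYC1 to NOL within a library was 3.18 ± 0.14 in *fer* and 2.23 ± 0.093 in WT, and that of PAO to RCCR was -2.44 ± 0.021 in *fer* and -3.21 ± 0.11 in WT (SD, n = 3). Both ratios were chosen after the members of each pair had been seen to differ in direction. Their separation of the genotypes is therefore a description, and no p-value is given for it.

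**Figure D3:**
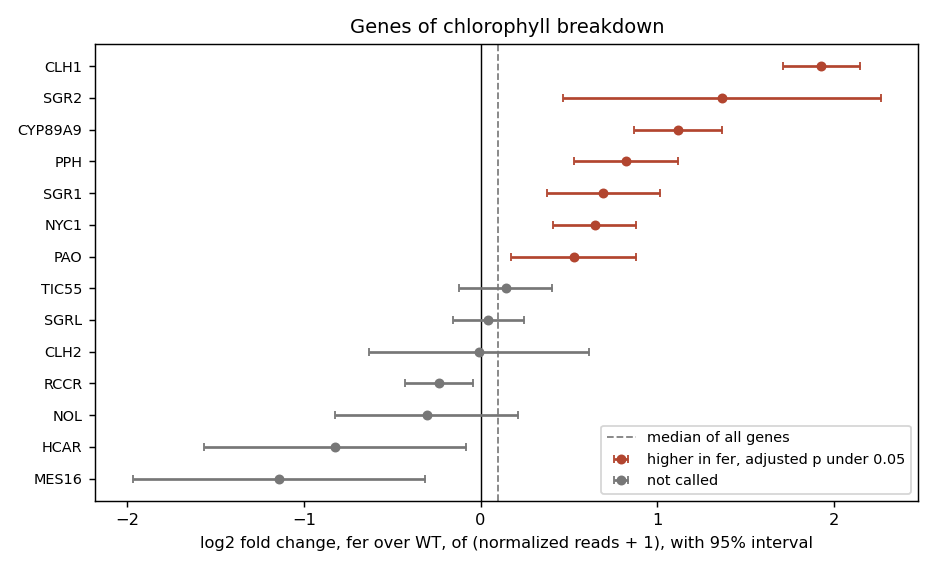
Log2 fold change of *fer* over WT with 95% intervals for 14 genes of chlorophyll breakdown on the log2(normalized reads + 1) scale; red points were called higher in *fer* and grey points were not called, and the dashed line is the median of all genes. SGR1, NYC1, PAO and PPH cluster between 0.53 and 0.82, CLH1 lies at 1.93, and RCCR, NOL, HCAR and MES16 lie below 0.

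**Figure D4:**
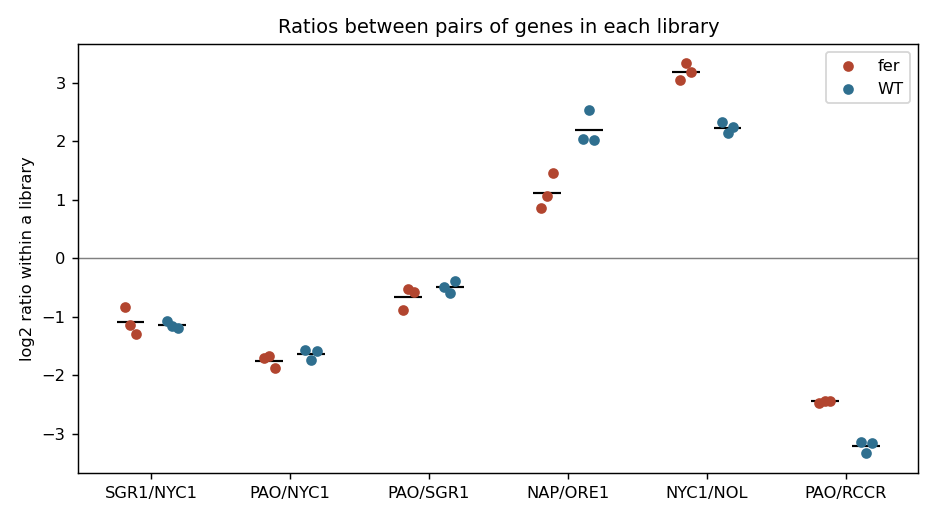
Log2 ratio of normalized reads between pairs of genes within each library, with *fer* in red to the left of WT in blue and means as bars. The first 3 ratios overlap between genotypes, NAP/ORE1 is lower in *fer*, and NYC1/NOL and PAO/RCCR, which were chosen after their values were seen, are higher in *fer*.

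Transcription factors known to promote or delay leaf senescence were examined beside ORE1 and NAP. Of 27 in the table, 12 were called higher and 0 lower in *fer*, beside 10.0% and 4.52% of all genes, and limma without the trend called 7 higher, beside 4.38%. Their median log2 fold change was 0.55. The 4 largest changes were found for NAC055, WRKY45, NAC047 and NAC019. NAC055 and NAC019 are closely related NAC factors that respond to jasmonate and abscisic acid. NAC055 had 33.6, 35.7 and 41.4 normalized reads in *fer*, against 1.67, 3.04 and 3.05 in WT. Its log2 fold change was 3.42 ± 0.39 (SE). Its WT values lay around the floor of 3, and the log2 fold change ran from 3.15 to 3.83 under the alternatives without leaving out a library. NAC019 had 151, 123 and 108 normalized reads in *fer*, against 22.0, 16.1 and 21.8 in WT, with a log2 fold change of 2.62 ± 0.21 (SE). WRKY45, which promotes age-triggered senescence, had 118, 107 and 105 normalized reads in *fer*, against 11.4, 19.1 and 12.6 in WT, with a log2 fold change of 2.88 ± 0.24 (SE). NAC047 had 11.9, 14.6 and 11.5 normalized reads in *fer* and at most 2.02 in WT, at least 4.23-fold higher against the floor of 3.

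Further regulators are named here after their values were seen. RD26 and WRKY53, which promote senescence, had log2 fold changes of 1.46 and 1.35. WRKY53 overlaps a gene on the other strand over the whole 300 bases searched at its 3′ end, and its call was lost without the trend (adjusted p 0.099 in limma). WRKY70, which delays senescence, was also called higher, with a log2 fold change of 0.55 (adjusted p 0.0075 in limma, 0.21 without the trend). The call was also lost without WT column 2 (0.094), WT column 3 (0.063) or *fer* column 3 (0.063). Its WT column 1, at 1101 normalized reads, lay inside the *fer* range of 1083 to 1282. The 12 called factors were therefore not all promoters of senescence. The remaining ones were WRKY75, WRKY6, WRKY57, ABF4 and GLK1, with log2 fold changes of 1.89, 1.70, 1.27, 0.59 and 0.33. WRKY75 was at least 2.30-fold higher against the floor of 3. WRKY6 and WRKY57 kept their calls under each alternative and after leaving out any library, whereas WRKY75, ABF4 and GLK1 did not. The ethylene-responsive factor EIN3, which acts upstream of ORE1, had 425, 288 and 380 normalized reads in *fer*, against 392, 331.0 and 331 in WT, with a log2 fold change of 0.04 and a 95% interval of -0.23 to 0.30. PIF4 and PIF5, which promote dark-induced senescence, had log2 fold changes of -0.09 and -0.01, with intervals of -0.30 to 0.13 and -0.23 to 0.20. JUB1, a NAC factor that delays senescence, was at most 4.02 normalized reads in any library.

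Of 28 other genes named for a rise in ageing or darkened leaves, or for remobilization, 27 were in the table and MT1A was absent. Among these, 14 were called higher and 0 lower in *fer*, beside 10.0% and 4.52% of all genes, at a median log2 fold change of 0.76, or 0.74 with the gene at the floor in WT set to its bound, and limma without the trend called 9 higher, beside 4.38% of all genes. DIN6, an asparagine synthetase induced by darkness and low sugar, had 306, 364 and 304 normalized reads in *fer*, against 70.3, 61.4 and 68.3 in WT, with a log2 fold change of 2.26 ± 0.13 (SE). DIN2, a beta-glucosidase gene, had 51.1, 31.7 and 62.4 normalized reads in *fer*, against 5.34, 6.06 and 27.3 in WT. The highest WT library of DIN2 came close to the lowest *fer* library, and limma without the trend did not call it (adjusted p 0.11). SAG14, which encodes a blue copper-binding protein, and SRG1, which encodes a 2-oxoglutarate-dependent dioxygenase, had log2 fold changes of 2.12 and 2.11. SWEET15 and BFN1 are named from the 13 genes of this list that were not called, after their values were seen. SWEET15, a sugar transporter gene also known as SAG29, had 7.74, 7.45 and 14.4 normalized reads in *fer*, against 9.46, 14.1 and 6.60 in WT, and BFN1, a nuclease gene that is a target of ORE1, had 17.3, 10.6 and 11.5 in *fer*, against 10.7, 11.1 and 8.94 in WT. Their log2 fold changes of -0.03 and 0.31 had 95% intervals of -0.92 to 0.87 and -0.48 to 1.10 and neither was called.

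**Figure D5:**
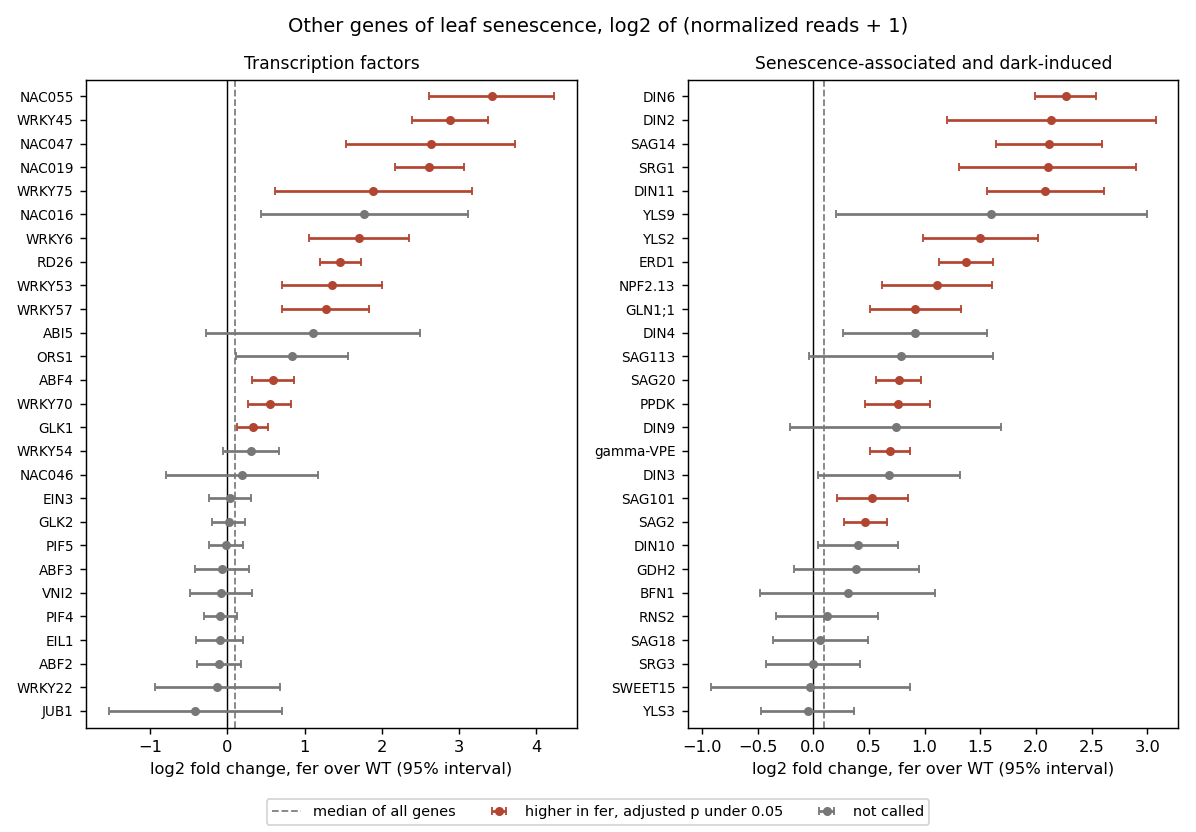
Log2 fold change of *fer* over WT with 95% intervals for 27 other transcription factors of senescence (left) and 27 other senescence-associated or dark-induced genes (right); red points were called higher in *fer*, grey points were not called, and the dashed line is the median of all genes. No gene of either list was called lower, NAC055 leads the left panel at 3.42, and SWEET15 sits at -0.03 in the right panel.

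The 9 genes were not highest in the same library of a genotype. In *fer*, columns 1, 2 and 3 each held the highest value of 3 genes. In WT, column 1 held the highest value of 5 genes, column 2 of 3 and column 3 of 1, and the median deviation of the 9 genes from their WT means was 0.14, -0.02 and -0.03 on the log2 scale in columns 1, 2 and 3. Reads of the 9 genes could be placed: none of 26 windows of 50 bases in the last 300 bases of each transcript occurred elsewhere in the genome, and no other gene overlapped these stretches.

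Genes with the most similar pattern were sought by Pearson's r of log2(normalized reads + 1) over the 6 libraries among genes with a mean of at least 10, which mostly follows the difference between the genotypes. The nearest gene was PRX52 for SAG12, AT1G26420 for SAG13, MC2 for SAG21, PIP1A for SEN1, ALF5 for ORE1, PMH2 for NAP, ABF4 for SGR1, AT1G68620 for NYC1 and AT4G12490 for PAO, with r between 0.995 and 0.999. The next were ADC2, SIP1A, AT5G46780, PAL1, AT3G29639, AT3G05335, CAT3, ABCI7 and AT2G39420 in the same order. Between 539 and 1509 genes had an r above 0.9 with a given gene of the set, so that these neighbours are a few among many.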

How the data were processed

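RNA was extracted from rosette leaves and libraries were made with a QuantSeq 3′ kit. Each library was sequenced in 2 runs, single-end at 50 bases. The authors merged the runs, aligned reads to TAIR10 with STAR and counted them per gene with htseq-count. Whether strand was used is not stated. The deposited values are a signal: reads scaled by the authors with TMM (edgeR is named in the submitters' processing notes) and brought to a common size, after a filter on low genes. The deposited table also holds 1 column with the authors' own log2 fold change, which was not used. Columns carry the genotype only. They are called column 1, 2 and 3 in table order, which pairs nothing across genotypes.

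Whole reads could not be recovered. Between 22.2% and 100.0% of values below 20 in a library lay within 0.1 of a whole multiple of the step estimated for that library, so the tests planned for a count table were not used, and counting intervals are left out.

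Values were compared on log2(value + 1) with limma 3.58.1 in R 4.3.3 (lmFit, eBayes with a trend) in two-sided tests; p-values were adjusted by Benjamini-Hochberg over the 20754 genes, at a threshold of 0.05. The pseudocount of 1 understates the change of low genes. The fit was tested on simulated data. Exact permutation tests used scipy 1.17.1. The study describes pooled entire rosettes for its protein samples and gives no number of plants for the RNA libraries. The p-values therefore concern these libraries. In limma the variance of each gene is drawn toward that of genes of like level, so it is not that gene's own spread alone. Positions and promoters are from RefSeq (TAIR10.1). The members, gene lists and tests were chosen with earlier results of these data known. Named genes were the 9 genes, FER, up to 4 called genes of each other list with the largest change, called genes against their list's median and the 2 genes most similar to each called gene. Alternatives were a pseudocount of 0.1, limma without the trend, quantile normalization, median of ratios scaling, a filter at a mean of 5, an adjusted p under 0.01 and leaving out each library.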

Additional observations from a re-analysis of the deposited data

How the results depend on the processing

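None of the 9 genes and none of the 31 other called genes, FER included, changed direction under the alternatives run. SAG12, SAG13, SEN1, ORE1 and NYC1 kept their direction and their call in all settings, with log2 fold changes of 4.57 to 7.63, 3.25 to 3.79, 0.72 to 0.97, 1.40 to 1.74 and 0.54 to 0.69. Called genes numbered 3021, of which 2083 were higher and 938 lower in *fer*. Limma without the trend called 1130 (908 higher, 222 lower), an adjusted p under 0.01 left 1682 (1190 higher, 492 lower), median of ratios scaling gave 1442 lower, and quantile normalization gave 1353 higher and 1450 lower, which turns the balance round. Leaving out a library called from 1907 to 2503 genes, 1287 to 1822 higher and 537 to 821 lower, with 1907 (1287 higher, 620 lower) without *fer* column 3 and 1973 (537 lower) without WT column 2.

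Calls without the trend were 5 of the 9 genes, 2 of the 11 other chlorophyll genes, 7 transcription factors and 9 other senescence genes. There SAG21 (0.93), NAP (0.51), SGR1 (0.70) and PAO (0.53) had adjusted p-values of 0.14, 0.12, 0.055 and 0.052. NAP was at 0.42 under median of ratios scaling and 0.39 under quantile normalization, and PAO at 0.43 and 0.37, neither called. Without a library NAP ranged from 0.44 to 0.61, PAO from 0.52 to 0.54 and the 9 genes kept 7 or 8 calls. Other chlorophyll genes called lower numbered 2 under each of these scalings, 0 to 1 without a library (MES16 without *fer* column 2). Of those 31 genes, 12 lost their call without the trend, 4 under each scaling, 2 with a pseudocount of 0.1 and 1 to 5 without a library. The ratios NYC1/NOL and PAO/RCCR were not run under alternatives. The causes were not tested. No paired analysis was possible because replicate numbers are lacking in the column names. Whole reads were not recoverable, so the tests for counts were not run. Precision is limited by 3 libraries and by low values: with a value under 3 normalized reads in each library, a level cannot be told from 0.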

Other observations

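The promoters of SAG12 and NYC1 shared a run of 11 bases around their CATGTG, ttCATGTGaac, which began 52 bases before the start of SAG12 and 54 bases before that of NYC1. It was noticed in the printed sequences after their values were seen. Of 27443 promoters of the same length, 4 held it on either strand. The other two belonged to DAC (AT3G17930), with means of 341 normalized reads in *fer* and 275 in WT (log2 fold change 0.30, adjusted p 0.081 in limma), and to AT4G22610, with means of 12.3 in *fer* and 4.53 in WT (log2 fold change 1.64, adjusted p 0.077 in limma). Shared runs of at least this length were found in 7 of the 36 pairs of the 9 promoters, and the longest had 14 bases.

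Outside the green leaf genes, AG and NRT2.1 were the marker genes called. AG was at least 1.07-fold lower in *fer* than in WT against the floor of 3, so its WT values lay close to that floor. Neither gene was followed under the alternatives. NRT2.1 encodes a high-affinity nitrate transporter of roots, and its mean of 12.2 normalized reads in *fer* was at least 4.08-fold higher than WT against the floor of 3, with an adjusted p of 0.00035 in limma.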
